A study of Homo sapiens with 4 samples.

Results

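Heat shock proteins, their cochaperones and the cytosolic chaperonin were examined in HCT116 cells, a line long established from a human colorectal carcinoma, after transfection with a TET1 siRNA or a control siRNA. The group was set as 52 named genes, of which 45 had at least 1 probe set (a set of short probes read together as 1 signal) that the platform annotation ties to that gene alone. These 45 genes had 101 of the 54675 probe sets of the array, and all 45 were bright enough to be tested, among 12389 genes tested in all. HSPB11 is annotated under its current symbol, IFT25. HSPA1A, HSPA1B, HSPA8, TCP1 and PFDN6 had only probe sets that carry several gene symbols, and HSF2 and AHSA1 were not analysed here. The group is wider than the cytosol: HSPA9, TRAP1, HSPD1, HSPE1 and DNAJA3 encode mitochondrial proteins, HSPA13, DNAJB12, DNAJB14 and SERPINH1 act in or at the endoplasmic reticulum, and HSPB11 belongs to the transport machinery of cilia.

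The groups were 2 samples with control siRNA and 2 with TET1 siRNA, each read on its own Affymetrix array, and the series calls the duplicates biological. All 4 came from HCT116 grown in the same medium with serum and transfected with the same lipid reagent; the labels give no time after transfection. With 1 group of TET1 siRNA, what follows from lower TET1 and what follows from that siRNA's other effects cannot be told apart. TET1 encodes an enzyme that oxidises 5-methylcytosine to 5-hydroxymethylcytosine, and the comparison asks which transcripts change when it is knocked down in this line. Signals are on a linear scale of arbitrary units, scaled to 1 trimmed mean on every array. The brighter TET1 probe set read 58.1 and 59.6 with control siRNA, against 14.6 and 15 with TET1 siRNA, so both TET1 siRNA arrays lay below both controls (25.1% of the control mean, log2 difference -1.28, SE 0.20, limma adjusted p = 9.69e-04). Those 2 TET1 siRNA signals are near the medians of their arrays (13.9 and 14.4), so the percentage is imprecise. The dimmer probe set read 18.2 and 35.5 against 6 and 8.9 and did not pass (limma adjusted p = 0.0509 with probe sets tested singly).

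Of 8 epithelial markers that this line should express, EPCAM, KRT8, KRT18, KRT19 and CDH1 had mean control signals of 992 or more, CLDN4 was at 276, and VIL1 (14.5) and CDH17 (1.95) lay near or below the array medians of 13.9 to 15.5. CDH1 fell and KRT8 rose. Markers of fibroblasts, endothelium, leukocytes and hepatocytes had mean control signals of at most 16.5. Of the neuronal markers, SNAP25 was at 41.8 and RBFOX3 at 4.1, while SYT1 went from 646 and 760 to 1078 and 1017, which took the summed neuronal signal from 702 to 796 with control siRNA to 1058 to 1120 with TET1 siRNA. The part of these markers in the results was not tested, and in bulk RNA a shift in which cells are present and a shift in RNA per cell cannot be told apart.

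Chaperones bind unfolded proteins and help them fold, and those of the heat shock response are induced by heat shock factor 1, which binds repeats of the letters GAA and TTC in promoters. HSP70 proteins bind and release clients through cycles of ATP hydrolysis that J proteins start and that HSP110 proteins and BAG proteins reset by exchanging the nucleotide. HSP90 takes partly folded kinases and steroid receptors from HSP70 through the linker STIP1, with further cochaperones for each step, while prefoldin hands actin and tubulin to the ring-shaped CCT chaperonin. Cancer cells generally carry high levels of this machinery.

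Of the 45 genes, 8 rose and 10 fell after TET1 siRNA, and 27 did not pass the test (limma, Benjamini-Hochberg adjusted p below 0.05 over all genes). That is 40.0% called, against 21.9% of all genes tested (11.2% rose and 10.6% fell, against 17.8% and 22.2% of the chaperone genes). Most of these genes are bright, and bright genes are called more often: with the test limited to genes above the upper quartile of all probe sets, 34.1% were called (18.1% rose, 16.1% fell), and of the 42 chaperone genes there 47.6% (8 rose, 12 fell). The changes were small. On the log2(signal + 16) scale the differences (TET1 siRNA minus control siRNA, as throughout) ran from -0.56 (CCT7) to 0.74 (DNAJB6), with a median of -0.02 against 0.01 over all genes. Only DNAJB1 and DNAJB6 passed the test with a change of at least 1.5-fold (4.44%, against 7.80% of all genes). The groups did not overlap in 33 of the 45 genes (73.3%, against 59.0% of all genes). The TET1 siRNA arrays were the higher ones in 14 (30.9% of all genes) and the lower ones in 19 (28.2% of all genes), and all 18 called genes were among them.

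Within the 45 genes the rises lay mainly among J proteins and BAG proteins, which act with HSP70. The falls lay among HSP90 and its cochaperones, the chaperonins and mitochondrial proteins. In a list of other chaperone genes, described below, J proteins went both ways. There DNAJC3, DNAJC12, DNAJC15 and DNAJC24 rose, and DNAJC9, DNAJC16 and DNAJC17 fell. BAG4 and BAG6 did not pass, and HSP90 partners went both ways too, with a rise of UNC45A and a fall of PPP5C. Of 10 J proteins 4 rose and 1 fell, with a median log2 difference of 0.15, and of 4 BAG proteins 2 rose (median 0.13), where 11.2% of all genes rose and 10.6% fell (18.1% and 16.1% of the bright genes). Of 3 HSP90 genes 2 fell (median -0.24), and of 6 HSP90 cochaperones 3 fell and 1 rose (median -0.21). Of 7 CCT subunits 2 fell (median -0.05), and both mitochondrial chaperonin genes fell (median -0.29). Of the 4 prefoldin subunits among the 45 genes none passed (median 0.07), which leaves out VBP1 of the other list (-0.19, not past the threshold). Of 5 HSP70 and HSP110 genes 1 rose (median -0.08). No difference between classes was tested. Counts of 8 rises and 10 falls became 5 and 6 without control siRNA replicate 2 and also without TET1 siRNA replicate 1, and 5 and 8 without TET1 siRNA replicate 2. With 2 residual degrees of freedom every call leans on the variance limma borrows across genes. Without its variance trend 2 of the 45 genes rose and 1 fell, while 984 of all 12389 genes changed. Without moderation none passed, and 11 of the 45 genes and 2679 of all 12389 had an unadjusted p below 0.05. In both of these fits the share among the chaperone genes was near that of all genes. With no filter on dim genes 6 fell, as STIP1, TRAP1, HSPD1 and HSPE1 lost their calls, and with the probe sets of each gene averaged 5 fell.

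**Figure D1:**
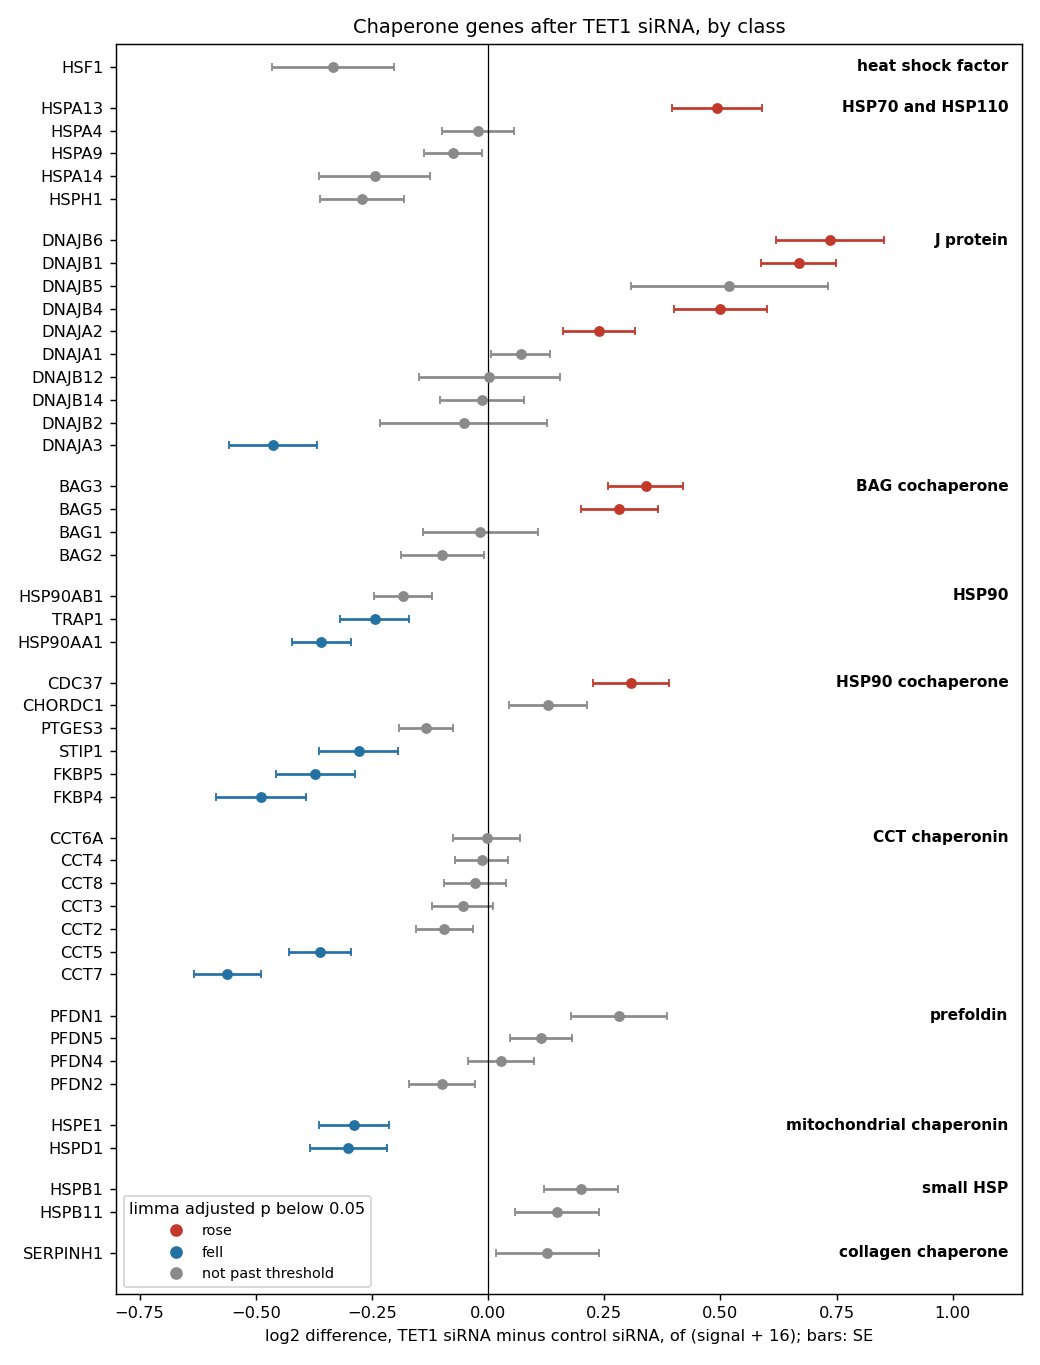
Log2 difference of (signal + 16) between 2 TET1 siRNA and 2 control siRNA arrays for each of the 45 chaperone genes, by class; points are the fitted difference of the brightest probe set and bars are 1 standard error. J proteins reach furthest to the right (DNAJB6 at 0.74), and CCT7 (-0.56) and FKBP4 (-0.49) furthest to the left.

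J proteins carry a J domain that makes HSP70 hydrolyse ATP, and many also bind the client. DNAJB1, the main stress-inducible J protein of the cytosol, gave signals of 603 and 557 with control siRNA, against 903 and 958 with TET1 siRNA, a log2 difference of 0.67 (SE 0.08, adjusted p = 1.85e-04). Its second probe set rose as well, from 410 and 399 to 660 and 688 (0.71, adjusted p = 2.93e-04 with probe sets tested singly). By the brighter probe set the mean with TET1 siRNA was 161% of the control mean, and the groups did not overlap for either. DNAJB6, which keeps aggregation-prone proteins soluble, read 134 and 133 against 221 and 247 (0.74, SE 0.12, adjusted p = 0.00104), the largest difference of all 45 genes. That value rests on 1 probe set. Another 2 brighter ones, tied to TMEM135 and DNAJB6 together, rose by less (0.44 and 0.39), and the annotation does not say which gene they read. DNAJB4, a relative of DNAJB1, read 275 and 257 against 404 and 363 (0.50, SE 0.10, adjusted p = 0.00431), and its second probe set also rose (0.37). With control siRNA alone that second probe set was the brighter (mean 280 against 266). These 3 genes passed with any 1 array left out.

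DNAJA2, a J protein of the class closest to bacterial DnaJ, rose by less, from 1218 and 1082 to 1376 and 1339 (0.24, SE 0.08, adjusted p = 0.0473), and did not pass with probe sets tested singly (adjusted p = 0.0636), with arrays centred on their medians, or without control siRNA replicate 2 or either TET1 siRNA array. The other DNAJA2 probe set, at 0.16, did not pass either (adjusted p = 0.281 with probe sets tested singly). DNAJA3, the mitochondrial J protein, went the other way. It read 779 and 683 with control siRNA, against 559 and 493 with TET1 siRNA (-0.46, SE 0.10, adjusted p = 0.00515), and its second probe set fell further, from 532 and 425 to 266 and 260 (-0.82, adjusted p = 8.19e-04). Of the members that did not pass, DNAJB5 had a log2 difference of 0.52 from dim and scattered signals (50.6 and 33.5 against 79.4 and 55, adjusted p = 0.107), and DNAJA1 one of 0.07 by its brightest probe set. A second DNAJA1 probe set read 519 and 479 against 621 and 590 (0.27, adjusted p = 0.0562 with probe sets tested singly), and passed where _x_at and _s_at probe sets were left out (adjusted p = 0.0488). DNAJB2, DNAJB12 and DNAJB14 lay between -0.05 and 0.00, and a dim DNAJB12 probe set, 1 of 4, fell from 29.7 and 24.8 to 3.9 and 8.7 (adjusted p = 0.0191).

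**Figure D2:**
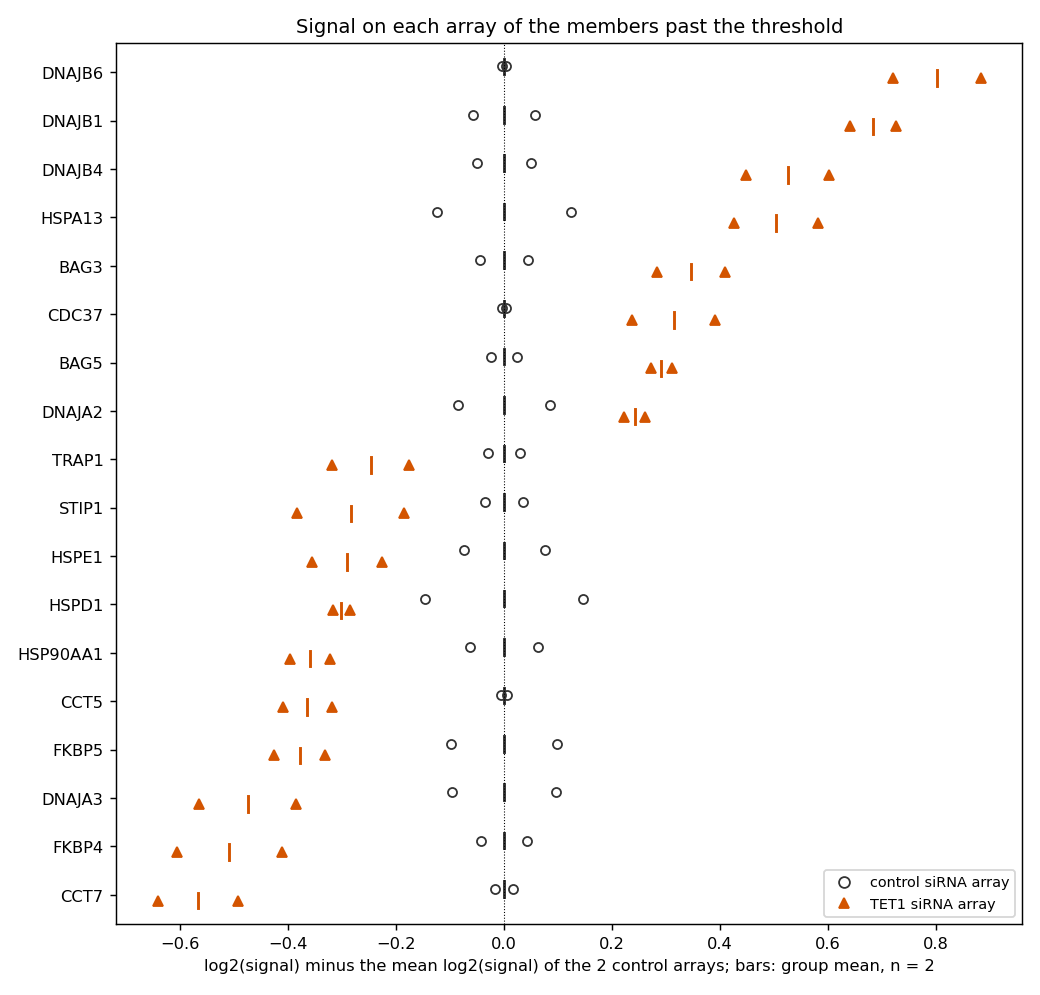
Log2 signal on each array of the 18 chaperone genes past the threshold, relative to the mean of the control siRNA arrays; circles are control siRNA arrays, triangles TET1 siRNA arrays and short bars group means (n = 2 each). In all 18 genes the triangles lie on 1 side of both circles, 8 to the right and 10 to the left.

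The letters of the heat shock element, 2 adjoining units written GAANNTTC or TTCNNGAA, were looked up in RefSeq promoters (GRCh38.p14, 250 bases before to 50 after each listed start, both strands). The windows below are from the J protein genes that rose and hold it, with the element in capitals, each 5′ to 3′ on the gene's strand. The first 2 lie before a DNAJB1 start, at chr19:14518456-14518485 and chr19:14518426-14518455 (minus strand). The others are at chr1:78004830-78004859 for DNAJB4 and chr7:157336853-157336905 for DNAJB6 (plus strand), and the DNAJB6 element has 3 units. A further DNAJB1 start, downstream of the one shown, has GAANNTTC at bases 1 to 8 after it, which is not printed.
DNAJB1 far: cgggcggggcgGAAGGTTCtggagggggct
DNAJB1 near: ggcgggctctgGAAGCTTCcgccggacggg
DNAJB4: agcatttgctgTTCTAGAAagtacagagac
DNAJB6: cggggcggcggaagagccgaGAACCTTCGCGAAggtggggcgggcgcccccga

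Among HSP70 and HSP110 genes, HSPA13 (an HSP70-like protein of microsomes) was the only member that rose, from 667 and 561 to 915 and 821 (0.49, SE 0.10, adjusted p = 0.00392). Its other probe set went from 606 and 605 to 778 and 779 and rose as well (0.35, adjusted p = 0.0105). HSPH1, the inducible HSP110, was lower on both TET1 siRNA arrays (754 and 887 against 667 and 684) but missed the threshold by its brightest probe set (-0.27, adjusted p = 0.0520), while the next one fell with probe sets tested singly (438 and 500 against 346 and 357; -0.40, adjusted p = 0.0172). HSPH1 did pass with quantile normalization (adjusted p = 0.0467), with its probe sets averaged (0.0296), with the upper-quartile filter (0.0424), with a replicate block (0.0357) and without control siRNA replicate 1 (0.0186). HSPA4, another HSP110-type exchange factor, depended on the probe set. The brightest over the 4 arrays gave -0.02 (95% interval -0.19 to 0.15). Of its other 3, 2 fell: 1 from 975 and 1040 to 827 and 790 (-0.31, adjusted p = 0.0193) and 1 from 203 and 204 to 126 and 144 (-0.54, adjusted p = 0.0109). With control siRNA alone the first of these was the brightest (mean 1007.5 against 982.35).

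HSPA9, the HSP70 of mitochondria, was at -0.08 (95% interval -0.21 to 0.06), and its 3 probe sets above the filter lay between -0.08 and -0.01. HSPA14, a ribosome-associated HSP70, had 1 probe set at -0.24 and 2 at 0.22 and 0.23, none past the threshold. For the stress-inducible pair HSPA1A and HSPA1B, no value can be given to either gene. The brightest probe set that the annotation ties to both read 975 and 1085 with control siRNA, against 1010 and 1047 with TET1 siRNA (log2 difference -0.00, adjusted p = 0.997), and the groups overlap. Probe sets tied to HSPA8, the constitutive HSP70, together with small nucleolar RNAs were 4 in number, with differences from -0.19 to -0.00 and none past the threshold.

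BAG proteins release ADP from HSP70 and so let the client go. BAG3, which is stress-inducible and directs clients to autophagy, rose from 698 and 743 to 956 and 876 (0.34, SE 0.08, adjusted p = 0.0111). BAG5 rose from 470 and 485 to 592 and 577 (0.28, SE 0.08, adjusted p = 0.0299), a call lost whenever 1 array was left out, and its dimmer probe sets lay at 0.10 and -0.22 without passing. BAG1 (-0.02) and BAG2 (-0.10) did not pass. BAG3 lost its call without control siRNA replicate 1 or without TET1 siRNA replicate 1. HSF1, which encodes the main heat shock transcription factor, read 137 and 132 against 98.6 and 108 by its brighter probe set (-0.33, adjusted p = 0.0941) and 87.3 and 80.9 against 82.9 and 89.8 by the other (0.03), so the gene did not pass and its probe sets differed. The small heat shock protein gene HSPB1 read 1776 and 1526 against 1872 and 1917 (0.20, adjusted p = 0.0970), higher on both TET1 siRNA arrays but short of the threshold, which it passed without control siRNA replicate 1 (adjusted p = 0.0218).

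Of the HSP90 genes, HSP90AA1 and TRAP1 fell. HSP90AA1, the stress-inducible cytosolic HSP90, fell from 8458 and 9224 to 7063 and 6713 (-0.36, SE 0.06, adjusted p = 0.00191). All 4 of its probe sets fell, with log2 differences from -0.41 to -0.31, and in each the groups were apart. HSP90AB1, the constitutive form, was lower by less: 7616 and 8008 against 6599 and 7174 (-0.18, 95% interval -0.32 to -0.05, adjusted p = 0.0583), and its 3 probe sets lay between -0.22 and -0.18 with none past the threshold, though HSP90AB1 passed under the upper-quartile filter (adjusted p = 0.0446). The difference between these paralogues was not tested, and cross-hybridisation between such similar genes was not tested either. TRAP1, the mitochondrial HSP90, fell from 1480 and 1421 to 1163 and 1284 (-0.24, SE 0.07, adjusted p = 0.0373). Its call was lost with median centring, without either control or TET1 siRNA replicate 1, and with probe sets tested singly (adjusted p = 0.0511).

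Both cytosolic HSP90 genes have a promoter with a heat shock element of 3 units. They are shown because both TET1 siRNA arrays were below both controls here, and above them for the J protein genes with the element: chr14:102087112-102087140 (minus strand) for HSP90AA1, which fell, and chr6:44247823-44247851 (plus strand) for HSP90AB1, which did not pass. The capitals mark the element.
HSP90AA1: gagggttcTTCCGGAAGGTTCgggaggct
HSP90AB1: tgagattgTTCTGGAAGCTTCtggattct

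Cochaperones of HSP90 changed in both directions. FKBP4 (FKBP52), an immunophilin that favours steroid receptor activity, fell from 479 and 452 to 306 and 350 (-0.49, SE 0.10, adjusted p = 0.00428). FKBP5 (FKBP51), which acts against it on the same receptors, fell from 980 and 1124 to 834 and 781 (-0.37, SE 0.09, adjusted p = 0.00930). The other probe sets of both genes were lower without passing, 3 of FKBP4 (-0.35 to -0.14) and 2 of FKBP5 (-0.27 and -0.19), and neither gene passed when its probe sets were averaged. FKBP5 also lost its call without control siRNA replicate 2 or without TET1 siRNA replicate 2.

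STIP1, which links HSP70 to HSP90, fell from 904 and 948 to 710 and 815 (-0.28, SE 0.09, adjusted p = 0.0374). It did not pass with probe sets tested singly (adjusted p = 0.0514), with median centring, or without either control or TET1 siRNA replicate 1. The other STIP1 probe set, at -0.22, did not pass either (adjusted p = 0.0833 with probe sets tested singly). CDC37, which brings kinases to HSP90, rose from 691 and 687 to 812 and 904 (0.31, SE 0.08, adjusted p = 0.0191), a call lost without either control or TET1 siRNA replicate 2. PTGES3 (p23), which stabilises the closed HSP90 dimer, was at -0.13 (adjusted p = 0.128, or 0.0394 with quantile normalization), and CHORDC1 at 0.13 (adjusted p = 0.321).

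The CCT chaperonin is a double ring, each ring holding all 8 different subunits, and 2 of the 7 measured transcripts fell. CCT7 fell from 2086 and 2136 to 1353 and 1501, to 67.6% of the control mean (-0.56, SE 0.07, adjusted p = 2.83e-04), the largest fall of the 45 genes. CCT5 fell from 2120 and 2102 to 1589 and 1692 (-0.36, SE 0.07, adjusted p = 0.00270). Both passed with any 1 array left out. CCT5 did not pass when its probe sets were averaged, which brings in a dim one at -0.22. The other 5 subunits measured, CCT2, CCT3, CCT4, CCT6A and CCT8, lay between -0.09 and -0.00 and did not pass. Their 95% intervals run no lower than -0.23, against intervals of -0.72 to -0.40 for CCT7 and -0.51 to -0.21 for CCT5, which overlaps that of CCT2 (-0.23 to 0.04). The differences between subunits were not tested. For CCT4 the signals were 4433 and 4510 against 4394 and 4462, and for CCT8 3632 and 4010 against 3674 and 3811, so in both the groups overlap. A second CCT6A probe set read 754 and 994 against 723 and 739 (-0.24, adjusted p = 0.188 with probe sets tested singly). Probe sets tied to TCP1, the first CCT subunit, together with a small nucleolar RNA were 3 in number, at -0.33 to -0.15, and none passed.

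Prefoldin, the hexamer that delivers actin and tubulin to CCT, showed no call. PFDN1 read 244 and 218 against 285 and 283 (0.28, adjusted p = 0.0765), and PFDN5 1861 and 1795 against 2034 and 1926 (0.11, adjusted p = 0.264). PFDN2 (-0.10) and PFDN4 (0.03) completed the subunits measured within the group. VBP1, a prefoldin subunit placed in the list of other chaperone genes, was lower on both TET1 siRNA arrays. It read 2200 and 2143 against 1899 and 1913 and did not pass (-0.19, adjusted p = 0.0577). The 4 probe sets tied to PFDN6 and a microRNA lay between -0.13 and 0.15, and none passed. SERPINH1 (HSP47), the collagen chaperone, was at 0.13 with overlapping groups.

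HSPD1 (HSP60) and HSPE1 (HSP10) form the chaperonin of the mitochondrial matrix, and both fell. HSPD1 read 7630 and 9343 with control siRNA, against 6928 and 6777 with TET1 siRNA (-0.30, SE 0.08, adjusted p = 0.0231), so the TET1 siRNA arrays agree and the controls are spread. Its call was lost without control siRNA replicate 2 or without either TET1 siRNA array. A second bright HSPD1 probe set read 4404 and 5206 against 4266 and 4096 and did not pass (-0.20, adjusted p = 0.123 with probe sets tested singly). The HSPD1 call was also lost when its 5 probe sets were averaged, of which 3 lay above the filter on dim signals. Without _x_at and _s_at probe sets a dim one was left, at 0.09. HSPE1 read 2634 and 2374 against 1955 and 2137 (-0.29, SE 0.07, adjusted p = 0.0175), a call lost with median centring, without control siRNA replicate 1 and without TET1 siRNA replicate 1. With no filter on dim genes neither of the pair passed. With TRAP1 and DNAJA3, 4 of the 5 genes of mitochondrial proteins fell and none rose, with a median of -0.29, against 6 falls and 7 rises among 35 genes of cytosolic or nuclear proteins (10.6% of all genes fell). This grouping by compartment was made after the values had been seen, and it leaves out the mitochondrial chaperones and proteases of the wider list, of which CLPX (0.36, adjusted p = 0.0101) and DNAJC15 (0.33, adjusted p = 0.0345) rose. FKBP8, of the mitochondrial outer membrane, fell (-0.61, adjusted p = 0.0274). DNAJC30 (0.45, adjusted p = 0.0709), DNAJC19 (0.27), HSCB (0.19), GRPEL1 (-0.03), GRPEL2 (-0.04), CLPB (-0.07), DNAJC11 (-0.07), LONP1 (-0.08) and CLPP (-0.26) did not pass.

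These genes lie head to head on chromosome 2. The stretch between the outermost HSPD1 start and the HSPE1 start, chr2:197500275-197500378, is 104 bases long and holds no heat shock element, so it is printed without capitals (plus strand). A window before a second HSPD1 start, at chr2:197500062-197500090 (minus strand), holds a run of 4 units, in capitals.
HSPD1 and HSPE1 between starts: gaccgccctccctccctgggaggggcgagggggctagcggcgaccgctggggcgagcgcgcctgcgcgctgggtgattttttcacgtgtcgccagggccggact
HSPD1 second start: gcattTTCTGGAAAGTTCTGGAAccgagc

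Across the group, 47 of the 52 genes had a RefSeq promoter, and 20 of them held GAANNTTC or TTCNNGAA in at least 1 (16.2% of 27305 genes in the table do). The 3-unit form, in which a further GAA or TTC follows the shorter form after 2 free bases, was found in 8 genes (0.608% of genes in the table). Genes with the shorter form were 3 of 8 that rose, 3 of 9 that fell and 9 of 23 that did not pass. The 3-unit form was in DNAJB6 among the rises, in HSP90AA1 and HSPD1 among the falls, and in HSP90AB1, CHORDC1, DNAJA1 and SERPINH1 among genes that did not pass, so genes with these letters lay on both sides of 0. A match is a description of letters, and binding of a factor was not measured.

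**Figure D3:**
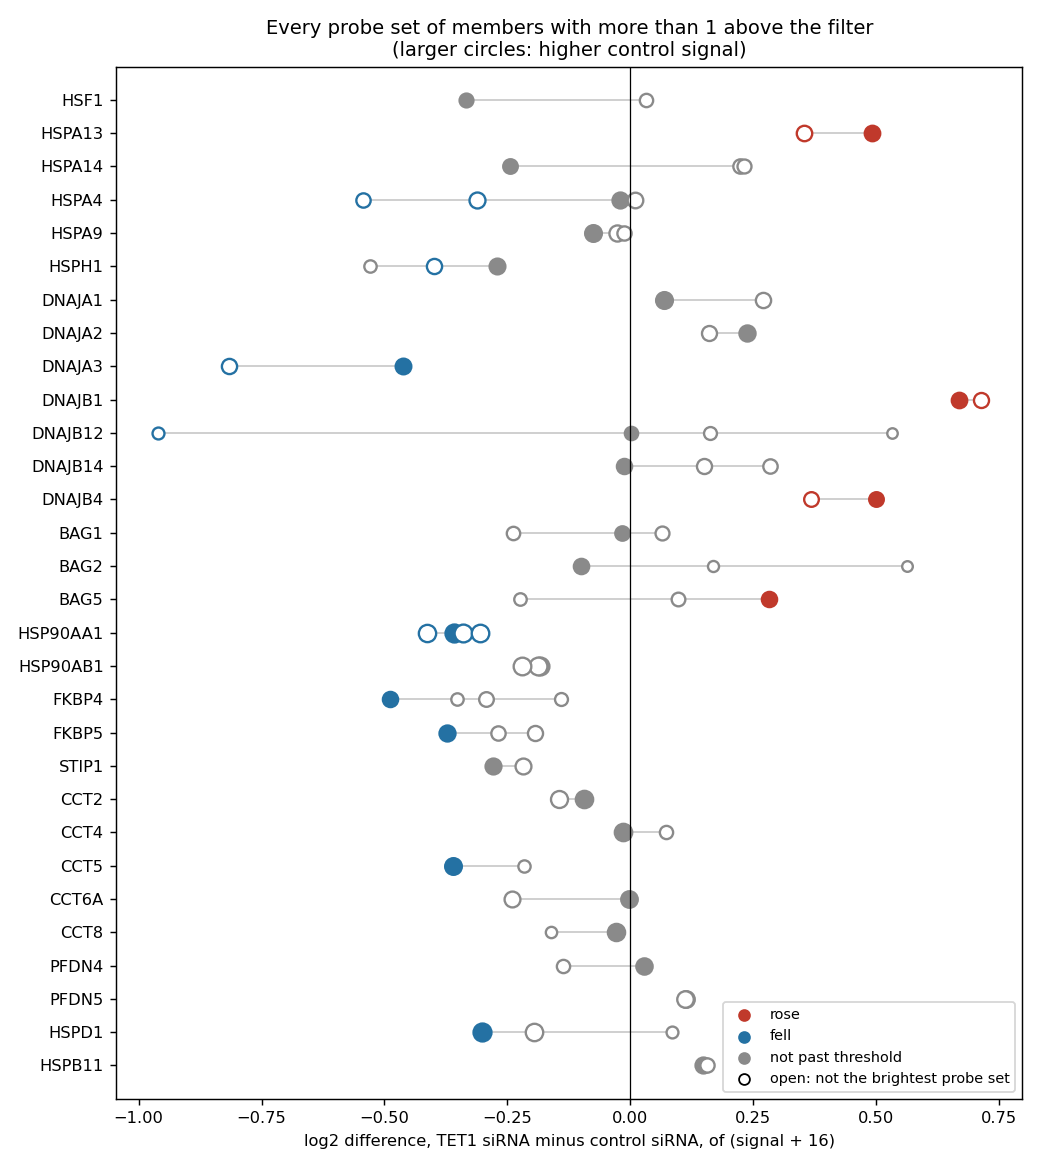
Log2 difference of every probe set above the filter for the 30 chaperone genes with more than 1; filled circles are the brightest probe set of a gene, larger circles have a higher control signal, and red and blue mark probe sets that rose or fell when tested singly. HSP90AA1 has 4 blue circles between -0.41 and -0.31, while HSPA4 runs from -0.54 to 0.01.

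Of the 101 probe sets 93 lay above the filter on dim signals, and tested singly 10 rose and 16 fell (7.76% and 8.31% of all 27306 probe sets above the filter did). No member had probe sets that passed in opposite directions. Every probe set above the filter moved and passed in the same direction for HSPA13, DNAJB1, DNAJB4, DNAJA3 and HSP90AA1, among members with more than 1.

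A list of 112 other chaperone, cochaperone and heat shock genes had 103 with a probe set and 87 tested. Of these 12 rose, 7 fell and 68 did not pass, with a median of 0.05. The share called is close to that of all genes (21.9% called, 11.2% rose, 10.6% fell), so the list as a whole showed no excess of calls. DNAJC12, a cytosolic J protein that helps fold aromatic amino acid hydroxylases, rose most, from 128 and 124 to 270 and 230 (0.90, SE 0.12, adjusted p = 3.68e-04). Rises among HSP70 partners included those of ST13 (HIP), which slows the release of ADP from HSP70, from 1977 and 2072 to 2868 and 2897 (0.51, adjusted p = 2.39e-04), and of SIL1, an exchange factor of the endoplasmic reticulum (0.61, adjusted p = 0.00753). The myosin chaperone and HSP90 partner UNC45A rose by 0.53. BBS10 (0.66) and BBS12 (0.52), chaperonin-like proteins named for Bardet-Biedl syndrome, rose as well. MKKS, another such protein of the list, did not pass (0.02, adjusted p = 0.913), and its groups overlap.

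Falls in this list included HSPA4L, a close relative of HSPA4, from 410 and 412 to 285 and 281 (-0.52, SE 0.09, adjusted p = 0.00202). The HSP90-bound phosphatase PPP5C read 197 and 173 against 98.5 and 134 (-0.62, adjusted p = 0.0122), and FKBP8, an immunophilin of the mitochondrial outer membrane, 73.1 and 75.9 against 48.9 and 38.1 (-0.61, adjusted p = 0.0274). DNAJC9, a histone chaperone with a J domain, fell by 0.55, DNAJC17 by 0.65 and TTC5 by 0.46. TTC5 and DNAJC17 lost their calls under quantile normalization and median centring, TTC5 also without any 1 array and DNAJC17 without either control or TET1 siRNA replicate 2. FKBP8 lost its call without either control or TET1 siRNA replicate 2, PPP5C without control siRNA replicate 1 or TET1 siRNA replicate 1, and BBS12 without control siRNA replicate 1 or either TET1 siRNA array. SIL1 did not pass without TET1 siRNA replicate 1, nor UNC45A without TET1 siRNA replicate 2. PPP5C and DNAJC9 rest on _s_at probe sets: without these a dimmer probe set gave 0.10 and 0.15. BBS10 read 372 and 490 with TET1 siRNA, a wider spread than its controls (268 and 260).

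**Figure D4:**
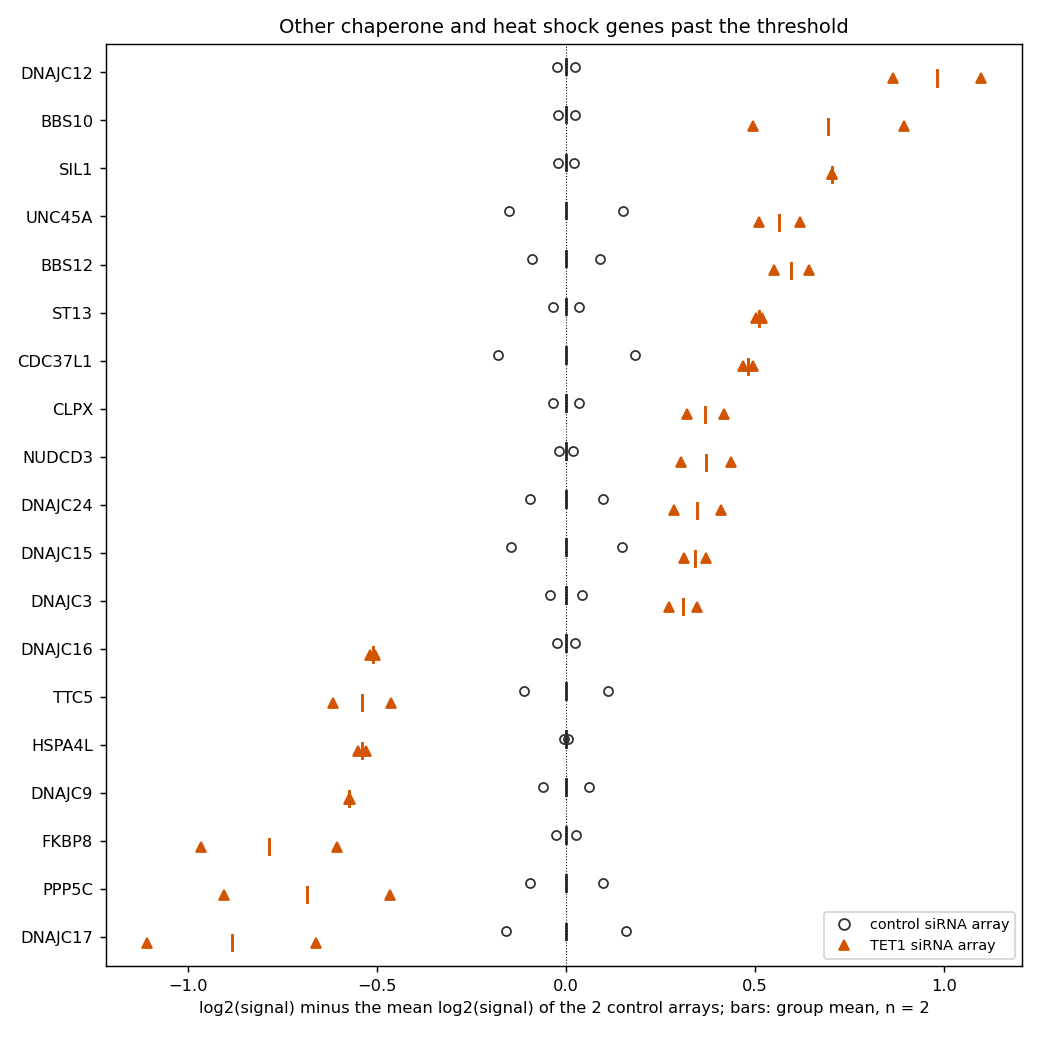
Log2 signal on each array of the 19 other chaperone and heat shock genes past the threshold, relative to the mean of the control siRNA arrays; circles are control siRNA arrays, triangles TET1 siRNA arrays and short bars group means (n = 2 each). DNAJC12 lies furthest to the right, and 12 genes lie to the right and 7 to the left of their controls.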

How the data were processed

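Per the labels' protocols, the labelled cRNA was made from oligo(dT)-primed cDNA, which favours 3' ends. The authors deposited a linear intensity for every probe set, scaled array by array to a common trimmed mean (100.01, 2% of probe sets left out at either end). The software and the background correction are not given in the sources used. The arrays' number limits the precision.

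Values were used as log2(signal + 16), which understates changes of dim genes. Probe sets with 1 annotated symbol (41091; 1801 had several, 11721 none, and 62 control probe sets were left out) were named through RefSeq gene identifiers. Each gene was read from its brightest probe set over the 4 arrays and tested if its mean log2 value exceeded the median of all probe sets (4.86). Signals with TET1 siRNA enter that choice, so it can favour a probe set that rises over one that falls. Groups followed the siRNA labels and were compared in R 4.3.3 by limma 3.58.1 (eBayes with a variance trend; 2 residual and 9.24 prior degrees of freedom), two-sided, with Benjamini-Hochberg adjustment over 12389 genes. With 2 arrays a group, exact permutation p-values start at 0.33. The members, lists and tests were chosen with earlier results of these data known. Members past the threshold, and at most 12 other chaperone genes by size of change, were named by rule; other names follow the classes.

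On simulated data of 12389 genes limma recovered 46% of genes changed by 0.5 (log2), 84% by 1, 100% by 2 and 72% by -1, with 14 false among 165 calls. Alternatives were other scalings, pseudocounts, variance models, filters and probe set choices, a replicate block and leaving out each array. Figures were drawn with matplotlib 3.10.9.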

Additional observations from a re-analysis of the deposited data

Results flagged for a closer look

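Outside the probe sets with 1 gene symbol, 17 probe sets carry a chaperone gene together with other symbols, and 16 of them lay above the filter. Among these 2 rose and none fell in limma's test of single probe sets, both tied to TMEM135 and DNAJB6 together. The brighter went from 623 and 583 with control siRNA to 779 and 813 with TET1 siRNA (log2 difference 0.39, adjusted p = 0.00769), and the dimmer from 469 and 465 to 587 and 693 (0.44, adjusted p = 0.0106). The annotation does not say which of the genes they read. With 2 arrays a group, no array could be tested as an outlier.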

How the results depend on the processing

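The counts of 8 rises, 10 falls and 2709 genes changed over all moved most with the variance model, which left the median of -0.02 as it was. Without the variance trend 2 members rose, 1 fell and 984 genes changed, and without moderation 0, 0 and 0 (2679 genes had an unadjusted p below 0.05, and the lowest adjusted p was 0.0898). With no filter 6 members fell and 1759 genes changed, and after averaging all probe sets of a gene 5 and 1664. Without _x_at and _s_at probe sets, which left 30 members, 3 rose, 6 fell, the median was -0.099 and 1794 genes changed. With probe sets tested singly 16 fell, and 4387 changed over all. Leaving out 1 array at a time gave 5 to 6 rises, 6 to 8 falls, 1700 to 2141 genes changed and a median of -0.073 to -0.0020. Of the 18 calls, 4 rises (DNAJB1, DNAJB4, DNAJB6, HSPA13) and 5 falls (CCT5, CCT7, DNAJA3, FKBP4, HSP90AA1) passed with any array left out. Quantile normalization, the upper-quartile filter and pseudocounts of 1 and 64 kept all 18 calls, and median centring, which moved the median of all genes to 0.05 and that of the members to 0.01, kept 14. Deviations of same-numbered replicates correlated at r = 0.0055 across 12389 genes and at 0.23 across the 45 members (genes are not independent), and the labels tie no numbers together, so pairing was not assumed. With a replicate block 2791 genes changed, 8 members rose and 11 fell, HSPH1 being added (adjusted p = 0.0357). Some differences near 0 changed sign, none of them past the threshold. With median centring CCT8 came to 0.0070, CCT4 to 0.021, CCT6A to 0.032, HSPA4 to 0.014, BAG1 to 0.019 and DNAJB14 to 0.023. Averaging all probe sets of a gene takes in dim ones, such as an HSPA9 probe set below the filter (1.4 and 6.6 against 8.7 and 9). After that averaging HSPA9 came to 0.053, CCT4 to 0.030, DNAJB12 to -0.066, PFDN4 to -0.0037, BAG2 to 0.21, CHORDC1 to -0.12, HSPA14 to 0.071 and DNAJB14 to 0.14. With 1 array left out DNAJB14 ranged from -0.077 to 0.052, CCT8 from -0.099 to 0.043, CCT3 from -0.12 to 0.0061, CCT6A from -0.073 to 0.067, DNAJB12 from -0.086 to 0.090, PFDN4 from -0.026 to 0.081, HSPA4 from -0.084 to 0.042, BAG1 from -0.17 to 0.14 and DNAJB2 from -0.26 to 0.15. Of called genes, HSPD1 (0.086), PPP5C (0.10) and DNAJC9 (0.15) changed sign without _x_at and _s_at probe sets, as did BAG1 (0.066), which was not called; the cause was not tested. Dim probe sets limit what can be seen: the 45 genes were all above the filter, but DNAJB5 was at 50.6 or less with control siRNA.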
